A study of Mus musculus with 41 samples.

Results

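The OAS family comprises the 2',5'-oligoadenylate synthetases and their relatives, and the 7 mouse genes described here are Oas1a, Oas1b, Oas1g, Oas2, Oas3, Oasl1 and Oasl2. They are 7 of the 22438 genes with footprint counts and of the 55385 genes with RNA values, and they carry 30 of the 142552 transcripts. The 7 genes were selected on measured values, namely the RNA abundance and footprint counts of these same libraries, so that their changes between genotypes are given as a description, with no p-value. No threshold was part of that choice. The other OAS genes (Oas1c, Oas1d, Oas1e, Oas1f and Oas1h) and the further genes of the pathway form lists that were drawn up with earlier results of these data known, and most of those named were picked for the size of their change. Their adjusted p-values come from quasi-likelihood fits in edgeR, adjusted by the method of Benjamini and Hochberg over every gene that was tested.

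Ribosome footprints, the RNA stretches that ribosomes shield from nuclease, were sequenced in 30 libraries, and polyadenylated RNA was sequenced in 11 libraries of mouse embryonic fibroblasts (MEFs). The study examined what the loss of Hbs1l and Pelo, which together rescue stalled ribosomes, and the loss of Upf2, a factor of nonsense-mediated decay, did to translation. Each footprint group had 3 libraries, and the RNA groups had 3 libraries each except for 2 of Pelo-/-. Embryos at E8.5 were Hbs1l-/- or wildtype on C57BL/6NJ, and every replicate held pooled embryos. Each cerebellum came from 1 mouse at P14 on C57BL/6J, either conditional knockout (cKO) or control for Hbs1l, and the Atoh1-Cre transgene of these mice is active in granule cell precursors, so that other cells of the tissue were not targeted, although the study's strain list gives these cKO mice as Hbs1l fl/-, with 1 of 2 alleles null from the start. MEFs on C57BL/6 were derived from single embryos, all carried the tamoxifen-dependent CAG-Cre ER transgene, and controls as well as Hbs1l, Pelo and Upf2 cKO cells received tamoxifen (4-OHT). By the study's strain list, Atoh1-Cre cKO mice and all MEFs, controls included, also carried the C57BL/6J allele of the tRNA gene n-Tr20, which lowers a brain-specific arginine tRNA.

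OAS enzymes bind RNA duplexes, which are typical of viral infection, and join ATP into short 2',5'-linked oligoadenylates. These oligoadenylates act as second messengers of the antiviral response. OAS genes are classical interferon-stimulated genes whose transcription is switched on by interferon-activated transcription factors at promoter elements called ISREs, and fibroblasts are a standard cell type for observing this response.

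In the mouse genome (GRCm38) all 7 genes lie on chromosome 5 in a pair of clusters. Oas2 (ENSMUSG00000032690.16, chr5:120730333-120749853, minus strand), Oas3 (ENSMUSG00000032661.9, chr5:120753098-120777661, minus), Oas1b (ENSMUSG00000029605.16, chr5:120812635-120824163, plus), Oas1g (ENSMUSG00000066861.14, chr5:120876142-120887613, minus) and Oas1a (ENSMUSG00000052776.10, chr5:120896256-120907521, minus) are neighbours. Oasl2 (ENSMUSG00000029561.17, chr5:114896936-114912234, plus) and Oasl1 (ENSMUSG00000041827.15, chr5:114923240-114937915, plus) adjoin each other elsewhere on the chromosome.

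Promoters are printed because the members moved together in MEFs. RefSeq windows (GRCm38.p6) were found for 5 of the 7 genes, and Oas1b and Oas2 had no entry. The sequences below are the 250 bases before the RefSeq start, 5' to 3' on the strand of the gene, and capitals mark ISRE-like matches, with overlapping matches merged. The letters searched were GAAA, any 2 bases and GAAA again, or their reverse complement, TTTC, any 2 bases and TTTC.
Oas1a (chr5:120907526-120907775, minus strand): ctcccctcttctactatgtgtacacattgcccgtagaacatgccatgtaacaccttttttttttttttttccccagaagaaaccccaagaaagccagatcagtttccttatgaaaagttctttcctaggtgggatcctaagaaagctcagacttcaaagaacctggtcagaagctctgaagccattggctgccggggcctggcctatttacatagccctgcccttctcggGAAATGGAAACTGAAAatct
Oas1g (chr5:120887614-120887863, minus strand): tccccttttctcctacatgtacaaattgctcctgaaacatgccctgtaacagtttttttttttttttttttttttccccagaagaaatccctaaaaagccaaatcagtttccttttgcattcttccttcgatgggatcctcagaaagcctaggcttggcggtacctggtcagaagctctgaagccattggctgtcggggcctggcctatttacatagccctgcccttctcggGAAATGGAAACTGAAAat
Oas3 (chr5:120777660-120777909, minus strand): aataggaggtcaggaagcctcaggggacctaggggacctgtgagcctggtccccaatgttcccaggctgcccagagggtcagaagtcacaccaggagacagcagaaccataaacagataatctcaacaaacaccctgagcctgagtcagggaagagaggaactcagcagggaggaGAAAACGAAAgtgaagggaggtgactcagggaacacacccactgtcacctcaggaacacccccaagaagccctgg
Oasl1 (chr5:114922990-114923239, plus strand): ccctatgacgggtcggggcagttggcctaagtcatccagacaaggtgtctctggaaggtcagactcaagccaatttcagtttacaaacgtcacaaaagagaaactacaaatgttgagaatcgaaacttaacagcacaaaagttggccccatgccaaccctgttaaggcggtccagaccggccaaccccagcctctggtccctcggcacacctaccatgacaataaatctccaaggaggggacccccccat
Oasl2 (chr5:114896684-114896933, plus strand): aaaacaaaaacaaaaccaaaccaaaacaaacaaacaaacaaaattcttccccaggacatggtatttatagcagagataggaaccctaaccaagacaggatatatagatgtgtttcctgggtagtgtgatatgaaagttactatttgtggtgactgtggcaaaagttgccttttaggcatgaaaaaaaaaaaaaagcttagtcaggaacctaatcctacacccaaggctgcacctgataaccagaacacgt

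ISRE-like letters occurred in 3 of the 5 windows, and in 978 of 32851 RefSeq windows of the same length (2.98%). Oas1a and Oas1g each had 2 overlapping matches, GAAATGGAAA and GAAACTGAAA, which spanned 20 to 5 bases before the start in Oas1a and 18 to 3 bases before it in Oas1g. Oas3 had 1 match, GAAAACGAAA, 75 to 66 bases before its start. The letters were not in these windows of Oasl1 and Oasl2. GAS-like letters (TTCNNNGAA, which read the same on both strands) were found only in the window of Oas1a among the 5, as TTCAAAGAA 98 to 90 bases before the start, and in 7.02% of all windows. A match is a description of the sequence, and binding was not measured.

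A further sequence bears on Oas1b, which is annotated as a polymorphic pseudogene because laboratory strains such as C57BL/6 carry a premature stop that flavivirus-resistant mice lack. In the reference, the reading frame of transcript Oas1b-203 met its first stop, TGA, at codon 253 of the 376 annotated codons (chr5:120821308-120821310, plus strand). This codon is in exon 4 of 6, with 2 exon junctions after it and 116 bases to the next of them. The 27 bases around it, with the stop in capitals, are shown with those around the stop of Oas1a, which is at codon 368 in its last exon, 7 of 7 (chr5:120896992-120896994, minus strand).
Oas1b: gcccagggcttcTGAaccgtcttggaa
Oas1a: tgtatcctgctgTGAgcacagcagcac
Nonsense-mediated decay, in which Upf2 acts, degrades mRNAs whose stop lies well upstream of an exon junction. Reads were counted per gene, so the values do not show where on Oas1b the ribosomes were.

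Across the series, footprint libraries held 2634480 to 7298812 counts in embryos, 10919139 to 22591768 in cerebella and 5782990 to 25607974 in MEFs, and RNA libraries held 22713643 to 86425762 estimated counts. Hbs1l footprints were lower in Hbs1l-/- embryos, cKO cerebella and Hbs1l-/- MEFs (log2 fold changes of -3.6, -1.5 and -4.15), and Pelo footprints were lower in Pelo-/- MEFs (-3.78), with RNA changes in MEFs of -2.78 for Hbs1l and -6.15 for Pelo. Upf2 counts per gene were higher, not lower, in the libraries labelled Upf2-/-. Footprints were 113 to 118 CPM (counts scaled to library size) there and 48.8 to 58.1 in their controls, and RNA was 30 to 62.9 against 15.7 to 21.4 CPM. Counts per gene do not resolve the deleted exons, so they do not show whether the deletion took place. The study reports that decay-target and intron-retaining transcripts accumulated in its Upf2-/- cells, and describes this as specific to them. MEF control footprint libraries with the same number in different pools differed by little more than sampling noise (chi-square per gene 1.10 to 1.19, against 4.06 to 12.6 for controls with other numbers), so the 3 footprint comparisons may share control cells and are not independent of each other. The 3 RNA comparisons share their control libraries. Fibroblast markers summed to 32400 to 38000 CPM of footprints in the mutant MEF libraries and 27700 to 29200 CPM in the controls, without overlap, and 6, 6 and 5 of 7 were called higher in Hbs1l-/-, Pelo-/- and labelled Upf2-/- cells (Thy1 was lower in the last). In RNA they summed to 12100 to 16100, 13700 to 14000 and 8470 to 9470 CPM against 10000 to 11900 in controls, so that labelled Upf2-/- libraries were below every control.

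In MEFs, the footprints of all 7 genes were higher in every mutant library than in every control library of its pool, for Hbs1l-/-, Pelo-/- and labelled Upf2-/- cells alike. Over all genes with a count in the fitted libraries this held for 18.5% (Hbs1l-/-), 24.2% (Pelo-/-) and 22.2% (labelled Upf2-/-), and nothing is read from the comparison with these shares, since the values chose the genes. Summed over the 7 genes, footprints were 287, 377 and 451 CPM (lowest, median and highest library) in Pelo-/- cells, 50.7, 113 and 179 CPM in labelled Upf2-/- cells and 30.5, 62.1 and 75.3 CPM in Hbs1l-/- cells, and the 9 control libraries ranged from 2.59 to 8.13 CPM. CPM here are counts scaled to the library with edgeR's TMM factors. In RNA the order was different. The summed RNA was 41.2, 65.8 and 90.0 CPM in Hbs1l-/- cells, 10.1, 20.9 and 22.5 CPM in labelled Upf2-/- cells, 4.02 and 5.06 CPM in the 2 Pelo-/- libraries and 2.21, 4.20 and 4.70 CPM in controls.

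**Figure D1:**
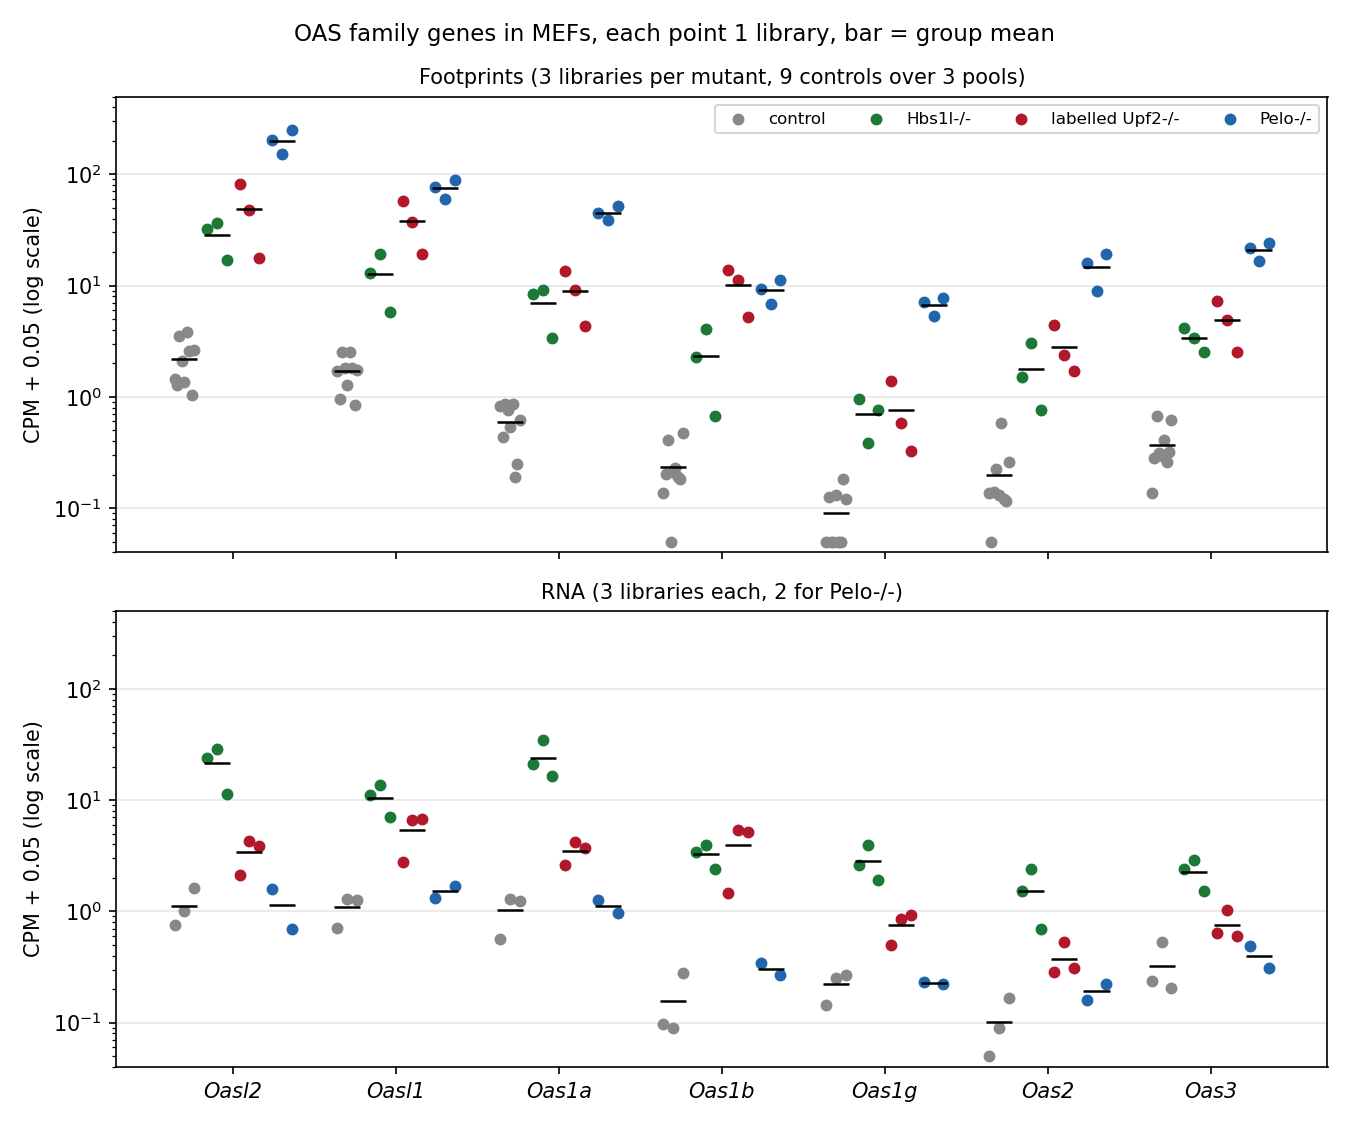
Footprints (top) and RNA (bottom) of the 7 OAS genes in MEFs, in CPM plus 0.05 on a log axis, where each point is 1 library, bars are group means and colours are genotypes. Pelo-/- footprints reached 249 CPM for Oasl2 while Pelo-/- RNA of this gene was 0.649 and 1.54 CPM against 0.705 to 1.57 CPM in controls, and the Hbs1l-/- libraries stood above the controls in both assays.

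Oas1a and Oas1g are the enzymatically active synthetases among the mouse Oas1 copies, and they resemble each other closely. Of the stretches of 28 bases in the coding sequence of Oas1a, 62.8% are also in Oas1g, so footprints and RNA reads of these genes may have been split between them and their separate levels are uncertain. Oas1a had 44.8, 38.5 and 52.2 CPM of footprints in Pelo-/- cells, 13.4, 9.0 and 4.25 in labelled Upf2-/- cells and 8.26, 9.04 and 3.30 in Hbs1l-/- cells, against 0.141 to 0.805 CPM over the 9 controls. No mutant library overlapped a control library, and Pelo-/- cells were the highest. The log2 fold changes against the controls of the same pool were 6.08 ± 0.20 (standard error) for Pelo-/-, 4.82 ± 0.51 for labelled Upf2-/- (5.58 without control 3 of its pool) and 3.36 ± 0.43 for Hbs1l-/-.

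In RNA, Oas1a was at 21.2, 34.6 and 16.5 CPM in Hbs1l-/- cells, at 2.56, 4.14 and 3.63 in labelled Upf2-/- cells, at 1.21 and 0.909 in Pelo-/- cells and at 0.517, 1.24 and 1.2 in controls. Only the Pelo-/- libraries overlapped the controls. The log2 fold changes were 4.53 ± 0.35, 1.75 ± 0.30 and 0.08 ± 0.40 in the same order of genotypes. Oas1g was rarer. Its footprints were 7.03, 5.26 and 7.73 CPM in Pelo-/- cells against a single count in the 3 controls, a ratio of 238 with an exact 95% counting interval of 42.5 to 9430. With 23 counts against 1 in Hbs1l-/- cells (ratio 26.1, interval 4.24 to 1080) and 16 against 3 in labelled Upf2-/- cells (9.46, 2.71 to 50.7), its other footprint changes are imprecise. Such intervals cover counting error only. Its RNA was 1.86 to 3.89 CPM in Hbs1l-/- cells, 0.447 to 0.871 in labelled Upf2-/- cells and 0.173 and 0.183 in Pelo-/- cells, with controls from 0.0940 to 0.219.

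Oas2 and Oas3 are the larger synthetases, built from repeated OAS units, and OAS3 is regarded as the main producer of oligoadenylates in human cells. Oas3 footprints were 21.7, 16.6 and 24.1 CPM in Pelo-/- cells, 7.21, 4.81 and 2.47 in labelled Upf2-/- cells and 4.06, 3.35 and 2.49 in Hbs1l-/- cells, and no control exceeded 0.626 CPM. Its log2 fold changes were 6.14 ± 0.27, 3.74 ± 0.47 and 3.39 ± 0.47 in this order, and the last was 4.27 without control 3 of its pool. Oas3 RNA was 1.49 to 2.86 CPM in Hbs1l-/- cells and 0.547 to 0.987 in labelled Upf2-/- cells, above the controls at 0.155 to 0.480, whereas the Pelo-/- libraries at 0.440 and 0.260 fell among the controls. Oas2 footprints were 15.9, 8.86 and 19.1 CPM in Pelo-/- cells (log2 fold change 5.79 ± 0.48, on 906 counts against 9) and 4.36, 2.32 and 1.64 CPM in labelled Upf2-/- cells (4.41 ± 0.57). Each without control 3 of its own pool, these changes were 6.77 and 5.06. In Hbs1l-/- cells 47 counts of Oas2 stood against 2 in the controls, a ratio of 26.7 (6.99 to 227), while its RNA rose from at most 0.116 CPM in controls to between 0.643 and 2.33 CPM (log2 fold change 4.27 ± 0.67, and 5.94 without RNA control 3).

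Oasl1 and Oasl2 code for OAS-like proteins with ubiquitin-like domains at their ends. OASL1 has no synthetase activity and is known to hold back translation of Irf7 mRNA, while mouse OASL2 makes oligoadenylates. Oasl2 had the highest mean footprint level of the family in each mutant, with 202, 152 and 249 CPM in Pelo-/- cells, 81.5, 47.4 and 17.5 in labelled Upf2-/- cells and 32.3, 36.3 and 16.8 in Hbs1l-/- cells, against 0.998 to 3.75 over the controls. In the lowest labelled Upf2-/- library Oasl1 was higher than Oasl2, at 19.3 CPM. This library was near the lowest Hbs1l-/- library, and these genotypes overlapped. Log2 fold changes were 6.42 ± 0.28, 4.56 ± 0.51 and 3.81 ± 0.34, the last being 4.42 without control 3 of its pool.

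Oasl2 RNA was 23.9, 28.8 and 11.3 CPM in Hbs1l-/- cells, 2.08, 4.28 and 3.81 in labelled Upf2-/- cells, 1.54 and 0.649 in Pelo-/- cells and 0.705, 0.960 and 1.57 in controls. The Pelo-/- libraries lay on both sides of the control median, with a log2 fold change of -0.02 ± 0.46. Leaving out 1 of the 2 Pelo-/- libraries moved it to -0.77 or 0.46. Oasl1 footprints were 76.2, 59.3 and 88.5 CPM in Pelo-/- cells, 57.2, 37.4 and 19.3 in labelled Upf2-/- cells and 12.8, 19.3 and 5.79 in Hbs1l-/- cells, with controls from 0.798 to 2.50. Its log2 fold change was 5.36 ± 0.22 in Pelo-/- cells, 4.73 ± 0.40 in labelled Upf2-/- cells and 2.86 ± 0.41 in Hbs1l-/- cells. Oasl1 was the 1 member whose RNA was above every control in both Pelo-/- libraries, at 1.28 and 1.64 CPM against 0.658, 1.24 and 1.21, with a log2 fold change of 0.47 ± 0.33.

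Oas1b, the truncated copy, stood apart from the rest of the family in labelled Upf2-/- cells. Its RNA was 1.40, 5.30 and 5.07 CPM there, 3.40, 3.94 and 2.37 CPM in Hbs1l-/- cells, 0.293 and 0.216 in Pelo-/- cells and 0.0470, 0.0400 and 0.232 in controls, which held 20 counts in all. The labelled Upf2-/- libraries overlapped the Hbs1l-/- libraries, whereas for the other 6 genes every labelled Upf2-/- RNA library was below every Hbs1l-/- library. The log2 fold change of Oas1b RNA was 4.71 ± 0.61 in labelled Upf2-/- cells, where those of the other 6 genes ranged from 1.51 to 2.32, and 4.44 ± 0.45 in Hbs1l-/- cells, within the range of 3.17 to 4.53 of the others. Without control library 3, which held 18 of the 20 control counts, these values were 6.4 and 6.13. Oas1b footprints were 13.6, 11.1 and 5.21 CPM in labelled Upf2-/- cells, 9.31, 6.72 and 11.2 in Pelo-/- cells and 2.24, 4.02 and 0.624 in Hbs1l-/- cells, against at most 0.422 in controls, with a log2 fold change in labelled Upf2-/- cells of 5.36 ± 0.48 (6.06 without control 3 of its pool). It was the only member whose Pelo-/- footprints did not exceed those of labelled Upf2-/- cells on average (9.09 ± 2.26 and 9.95 ± 4.3 CPM, SD, n = 3 each), and the libraries overlapped.

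Set against Oas1a within each library, Oas1b RNA counts were 0.547 to 1.40 of the Oas1a counts in labelled Upf2-/- cells, 0.114 to 0.161 in Hbs1l-/- cells, 0.238 and 0.242 in Pelo-/- cells and 0.0323 to 0.194 in controls. The labelled Upf2-/- libraries did not overlap any other group. In footprints the ratio was 1.01 to 1.23 in labelled Upf2-/- cells, 0.189 to 0.444 in Hbs1l-/- cells and 0.175 to 0.215 in Pelo-/- cells. The controls of the labelled Upf2-/- pool gave 0.667 to 1.00 on 10 counts of Oas1b and 13 of Oas1a, and the controls of the other pools gave 0 to 0.444 on 7 and 4 counts of Oas1b, so the control ratio in footprints is poorly known. Oas1b shares 6.18% of its stretches of 28 bases with other OAS genes, far fewer than Oas1a does.

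The same pattern was seen in the composition of the family. Oas1b took 13.9 to 24.2% of the RNA counts on the 7 genes in labelled Upf2-/- libraries, 4.38 to 5.76% in Hbs1l-/- libraries, 5.38 and 5.80% in Pelo-/- libraries and 0.952 to 4.93% in controls. Of the footprint counts it took 7.61 to 10.3% in labelled Upf2-/- cells, 2.05 to 5.33% in Hbs1l-/- cells and 2.34 to 2.49% in Pelo-/- cells. The shares of Oasl2 and Oas1a also differed between assays. In Hbs1l-/- cells Oasl2 held 48.2 to 55.3% of the footprint counts but 27.5 to 36.3% of the RNA counts, whereas Oas1a held 10.8 to 13.3% of the footprint counts and 32.2 to 40.2% of the RNA counts. These shares are not scaled for length, footprints were counted on coding sequence and RNA over whole transcripts, and the Oas1a share carries the uncertainty of Oas1g.

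**Figure D2:**
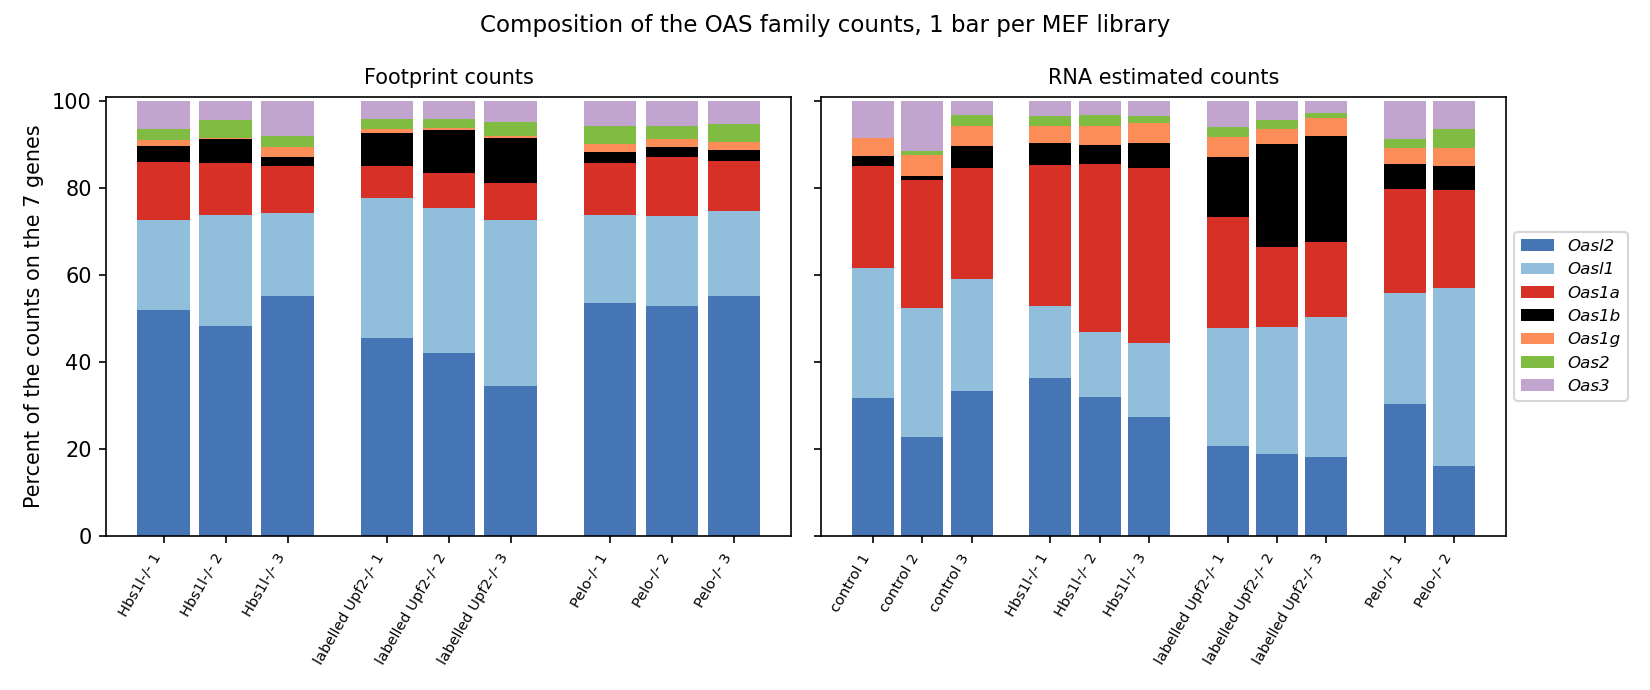
Percentage of the counts on the 7 OAS genes taken by each gene, 1 bar per MEF library, for footprints (left) and RNA (right), with control footprint libraries left out because they held 39 to 91 counts each on the 7 genes. The black segment (Oas1b) is widest in the libraries labelled Upf2-/-, at 13.9 to 24.2% of RNA counts and 7.61 to 10.3% of footprint counts.

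Levels of different genes were compared per length. In Pelo-/- cells the footprints per kilobase of coding sequence were 132 ± 31.7 CPM per kb for Oasl2 (SD, n = 3 here and in the next sentence), 48.7 ± 9.56 for Oasl1, 41.0 ± 6.24 for Oas1a, 8.06 ± 2.01 for Oas1b, 6.28 ± 2.25 for Oas2, 6.07 ± 1.13 for Oas3 and 5.82 ± 1.11 for Oas1g. In labelled Upf2-/- cells the order was Oasl2 (32.0 ± 21), Oasl1 (24.8 ± 12.4), Oas1b (8.82 ± 3.81), Oas1a (8.07 ± 4.16), Oas3 (1.41 ± 0.692), Oas2 (1.19 ± 0.607) and Oas1g (0.625 ± 0.486). Neighbours in these orders overlapped within 1 SD except Oasl2 and Oasl1, and Oas1a and Oas1b, in Pelo-/- cells, and Oas1a and Oas3 in labelled Upf2-/- cells. RNA abundance in Hbs1l-/- cells, in TPM (kallisto's abundance unit, scaled for transcript length and library), was highest for Oas1a (15.2 ± 6.12 TPM), followed by Oasl2 (11.1 ± 5.14), Oasl1 (5.55 ± 1.85), Oas1b (2.35 ± 0.568), Oas1g (2.2 ± 0.786), Oas3 (0.506 ± 0.163) and Oas2 (0.464 ± 0.209, SD, n = 3 each). Here Oasl1 and Oas1b, and Oas1g and Oas3, did not overlap within 1 SD.

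Part of the RNA came from transcripts that are not annotated as coding for the full protein. In Hbs1l-/- cells the Oasl2 transcript annotated as a target of nonsense-mediated decay held 54.4 to 57.8% of the Oasl2 TPM, and the coding Oasl2-201 held 33.6 to 38.7%. In controls this decay target held 52.1 to 83.7%. For Oas1g the decay target Oas1g-203, whose frame met a TAG at codon 235 in exon 3 of 7, held 52.0 to 74.8% in Hbs1l-/- cells, 4.34 and 54.3% in Pelo-/- cells and 0 to 58.7% in controls, the latter on few counts. In labelled Upf2-/- cells the decay targets held 57.3 to 65.2% of Oasl2 and 49.0 to 78.7% of Oas1g, ranges that overlapped those of Hbs1l-/- cells. Oas1b-203 was at 1.34 to 2.39 TPM in Hbs1l-/- cells and 0.795 to 3.17 TPM in labelled Upf2-/- cells, and kallisto assigned nearly all Oas1b reads of the Pelo-/- libraries, 12.9 estimated counts, to Oas1b-201 in its place. Which transcript reads are assigned to is uncertain at such low counts.

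Footprint and RNA changes were set against each other as translation efficiency (TE), tested by edgeR as the interaction of assay and genotype. Footprints and RNA came from separate dishes, and the RNA libraries formed batch 6 while the MEF footprints formed batches 3 to 5, so a difference in TE and a difference between cultures cannot be told apart. In Pelo-/- cells the log2 TE change was 6.54 ± 0.57 for Oasl2, 6.05 ± 0.42 for Oas1a, 5.56 ± 0.67 for Oas3, 5.47 ± 0.94 for Oas1b, 4.99 ± 1.2 for Oas2 and 4.94 ± 0.40 for Oasl1, and Oas1g had 7.67 ± 0.85 on 1 control footprint. The median of these 7 values was 5.56, where the median over all 13701 genes tested was 0.05. Expressed as mean footprint CPM over mean RNA CPM, Oasl2 was at 184 in Pelo-/- cells, 14.4 in labelled Upf2-/- cells, 1.34 in Hbs1l-/- cells and 1.99 in controls. For Oas1a these ratios were 42.7, 2.58, 0.285 and 0.550. The Pelo-/- ratio of Oasl2 is imprecise, since its RNA mean rests on 2 libraries at 1.54 and 0.649 CPM.

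In labelled Upf2-/- cells the log2 TE change was 3.10 ± 0.67 for Oas1a, 3.04 ± 0.69 for Oasl2 and 2.42 ± 0.61 for Oasl1. Values of the other 4 genes were 2.39 ± 1.0 for Oas2, 2.21 ± 0.76 for Oas3, 1.26 ± 1.0 for Oas1g and 0.71 ± 1.1 for Oas1b. Oas1b had the lowest value, but within its standard error of that of Oas1g, and it rests on RNA control 3, without which the RNA change of Oas1b was 6.4 beside a footprint change of 5.36. In Hbs1l-/- cells TE changes ranged from -1.14 for Oas1a to 0.60 for Oas1g and each was within 2 standard errors of 0.

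**Figure D3:**
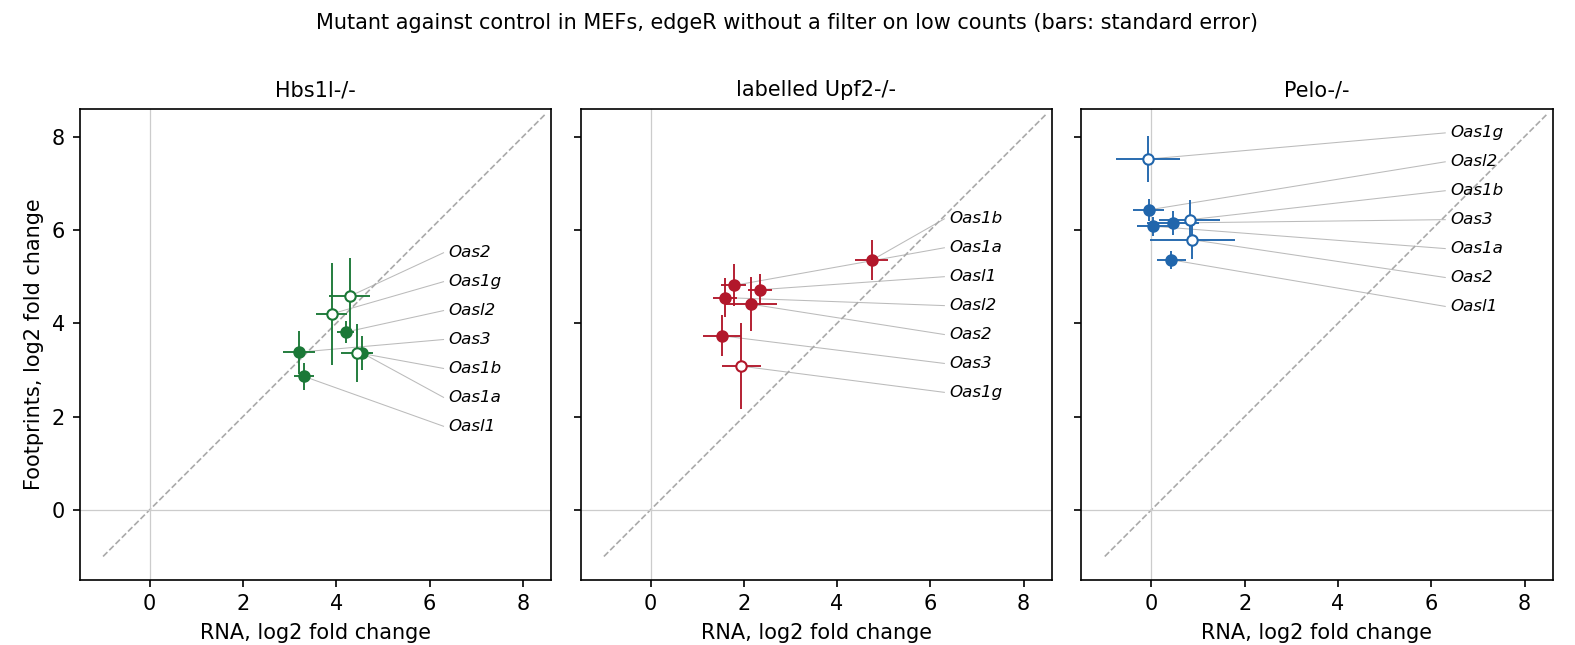
Log2 fold change of footprints (vertical) against that of RNA (horizontal) for each OAS gene and mutant against its controls in MEFs, from edgeR without a filter on low counts, with standard errors as bars, a dashed line of equal change and open symbols for genes that missed the default filter in either assay. Hbs1l-/- genes (left) lie near the dashed line, Pelo-/- genes (right) lie near 0 on the RNA axis with footprint changes of 5.36 or more, and Oas1b lies to the right of the other genes in the middle panel (labelled Upf2-/-).

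The threshold of an adjusted p of 0.05, in the fits over all genes that passed edgeR's filter on low counts, gave the following counts for the 7 genes. For footprints in MEFs all 4 genes that passed the filter were higher in Hbs1l-/- cells (17.4% of all genes tested were), all 7 in Pelo-/- cells (22.9%) and all 6 in labelled Upf2-/- cells (22.3%). For RNA, 7 of 7 were higher in Hbs1l-/- cells (12.7% of all genes tested), 0 of 4 in Pelo-/- cells (15.5%), where DESeq2 called 0 of 7 and limma 0 of 3, and 7 of 7 in labelled Upf2-/- cells (13.2%). All mutant RNA libraries were above all controls for 7, 1 and 7 of the 7 genes, and for 11.9%, 16.7% and 13.3% of all genes with a count, in the order Hbs1l-/-, Pelo-/- and labelled Upf2-/-. TE was higher for 0 of 7 genes in Hbs1l-/- cells (0.00761%, and 0 of 7 with DESeq2), 7 of 7 in Pelo-/- cells (21.9%) and 3 of 7 in labelled Upf2-/- cells (7.6%). Nothing is read from these counts, because the same values chose the genes and because a gene can pass the filter through the mutant libraries alone. Their median log2 fold changes, for genes that passed, were 3.37, 6.14 and 4.65 in footprints and 4.17, 0.27 and 1.92 in RNA, where the medians over all genes lay between -0.02 and 0.00.

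Outside MEFs the family was scarce, as it was in control MEFs (2.59 to 8.13 CPM of footprints). Its 7 genes summed to 3.08, 3.92 and 4.90 CPM of footprints in Hbs1l cKO cerebella against 3.33, 3.54 and 5.14 CPM in control cerebella, and these groups overlapped. Oasl2 alone passed the filter there, with 3.51, 2.64 and 2.69 CPM against 2.99, 4.10 and 2.59 and a log2 fold change of -0.13 ± 0.26. None was called higher, as were 0.0554% of all genes tested. In Hbs1l-/- embryos the sum was 1.51, 3.53 and 11.2 CPM against 1.76, 1.97 and 2.27 CPM. The highest value was that of replicate 3, which held 12 of the 17 Oas1a counts. Control embryos held 3 counts of Oas1a, a ratio of 3.82 (counting interval 1.11 to 20.4), and the libraries overlapped. No OAS gene passed the filter in embryos, where 0.92% of all genes tested were called higher.

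Among the other OAS genes, Oas1c had enough RNA to be tested in MEFs. It was higher in Hbs1l-/- cells, at 1.33 to 1.67 CPM against 0.564 to 0.773 in controls (log2 fold change 1.07 ± 0.23, edgeR adjusted p = 0.012). Its values were -0.53 in Pelo-/- cells and 0.51 in labelled Upf2-/- cells (edgeR adjusted p = 0.25 and 0.28). Its TE rose in Pelo-/- cells by 2.29 ± 0.76 (edgeR adjusted p = 0.029) on 36 footprints against 6. Oas1d, Oas1e, Oas1f and Oas1h stayed at or below 0.128 TPM in every RNA library.

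Further pathway genes were Abce1, known for splitting ribosomes after termination, Pde12 and Akap7, which have oligoadenylate-degrading phosphodiesterase activity, Eif2ak2, the duplex RNA-activated kinase PKR, and Adar, which edits adenosines in RNA duplexes. Of these 5 genes, 3 were higher in Hbs1l-/- footprints, 2 were higher and 1 lower in Pelo-/- footprints and 2 were higher in labelled Upf2-/- footprints. Eif2ak2 footprints rose by 0.97 ± 0.12, 2.03 ± 0.12 and 1.56 ± 0.20 on the log2 scale in these genotypes (edgeR adjusted p = 3.5e-05, 1.5e-06 and 0.0001), and those of Adar by 0.98 ± 0.10, 1.84 ± 0.087 and 1.56 ± 0.13 (edgeR adjusted p = 1.2e-05, 3.1e-07 and 7.4e-06). In Pelo-/- RNA, Eif2ak2 was lower, at 4.67 and 5.39 CPM against 11.6 to 13.0 in controls (-1.28 ± 0.13, edgeR adjusted p = 0.0011), and Abce1 was lower, at 32.1 and 47.4 CPM against 124 to 143 (-1.73 ± 0.17, edgeR adjusted p = 0.0011). Akap7 RNA was lower too (-0.84 ± 0.20, edgeR adjusted p = 0.019), and Adar RNA was higher in all 3 genotypes (1.10, 0.48 and 1.00, edgeR adjusted p = 0.0015, 0.014 and 0.00032). Abce1 footprints rose slightly in Hbs1l-/- cells (0.25 ± 0.077, edgeR adjusted p = 0.022) and gave 0.03 in Pelo-/- and 0.00 in labelled Upf2-/- cells.

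Genes upstream of the OAS family were examined in both assays. Over all genes tested, 17.4%, 22.9% and 22.3% were called higher in Hbs1l-/-, Pelo-/- and labelled Upf2-/- footprints and 12.7%, 15.5% and 13.2% in RNA, which is the background for every list count given here. Of 8 sensors of foreign RNA and DNA, 7 had higher footprints in Hbs1l-/- cells, 7 in Pelo-/- cells (1 was lower) and 5 in labelled Upf2-/- cells, and 6 of 8, 0 of 7 (1 was lower) and 2 of 8 had higher RNA. In Pelo-/- cells the footprints of Zbp1, a Z-form nucleic acid sensor, rose by 7.13 ± 0.54, of Dhx58 (LGP2) by 5.90 ± 0.38 and of Ifih1 (MDA5) by 4.05 ± 0.15 (edgeR adjusted p = 5.9e-06, 2.1e-06 and 1e-07), while Ifih1 RNA fell by 1.06 ± 0.28 (edgeR adjusted p = 0.028). Of 10 genes of interferon signalling that were tested, 6, 8 and 6 had higher footprints in Hbs1l-/-, Pelo-/- and labelled Upf2-/- cells, and 6, 1 and 5 had higher RNA, of which the 1 of 10 in Pelo-/- RNA is near the share over all genes. TE, which tests the difference between the assays, was higher for 0, 7 and 5 of the 8 sensors and for 0, 7 and 5 of the 10 interferon signalling genes in Hbs1l-/-, Pelo-/- and labelled Upf2-/- cells, where 0.00761%, 21.9% and 7.6% of all genes were, and 1 gene of each list had a lower TE in Pelo-/- cells. Irf7, the master regulator of interferon genes, had footprint changes of 3.63 ± 0.29, 5.89 ± 0.26 and 3.58 ± 0.36 (edgeR adjusted p = 1.9e-06, 1.9e-07 and 2.3e-05) and RNA changes of 4.03 ± 0.35, 0.22 ± 0.48 and 1.82 ± 0.38 (edgeR adjusted p = 0.00061, 0.75 and 0.0077).

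Stat2 and Irf9, transcription factors that act at ISREs, also had higher footprints. Stat2 rose by 2.02, 3.56 and 3.11 and Irf9 by 2.75, 3.56 and 2.94 on the log2 scale in Hbs1l-/-, Pelo-/- and labelled Upf2-/- cells (the highest of these 6 edgeR adjusted p values was 1.6e-05). In Pelo-/- RNA their values were 0.26 ± 0.12 and 0.60 ± 0.24 (edgeR adjusted p = 0.14 and 0.094). Ifnb1, which codes for interferon beta, had 0.360 to 0.769 CPM of footprints in the 3 Pelo-/- libraries and none in any control. Its footprints reached at most 0.274 CPM in labelled Upf2-/- and 0.07 CPM in Hbs1l-/- MEF libraries. Ifnb1 RNA was at 0 in the controls, the Pelo-/- and the labelled Upf2-/- libraries and reached at most 0.0457 CPM in Hbs1l-/- libraries. All these levels are very low. For 15 reference interferon-stimulated genes, footprints were higher for 12 of 13 tested, 15 of 15 and 14 of 15, and RNA for 14 of 14, 0 of 11 and 12 of 15, in Hbs1l-/-, Pelo-/- and labelled Upf2-/- cells. Mx2, an antiviral GTPase, had the largest change among them in labelled Upf2-/- RNA (6.06 ± 0.57, edgeR adjusted p = 5.9e-05), beside a list median of 1.78.

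Marker genes of other cells also differed between the MEF groups. The 8 leukocyte and macrophage markers summed to 366 to 527 CPM of footprints in Pelo-/- libraries, 169 to 228 in Hbs1l-/- libraries and 132 to 164 in labelled Upf2-/- libraries, against 98.0 to 132 over the controls, and none was at 0 in any of these groups. In Pelo-/- footprints all 7 tested were higher, among them Adgre1 (2.73), Aif1 (2.08) and Ptprc (2.07), while in Pelo-/- RNA only Lyz2 was (0.57, edgeR adjusted p = 0.04) and the sum was 106 and 151 CPM against 76.1 to 105. In Hbs1l-/- RNA 5 of 8 were higher and the sum was 136 to 182 CPM, above every control, and in labelled Upf2-/- RNA 0 of 8 were called by edgeR and the sum was 68.8 to 128 CPM. The 3 markers of plasmacytoid dendritic cells summed to 502 to 589 CPM of footprints in Pelo-/- libraries, 189 to 258 in Hbs1l-/- libraries and 127 to 250 in labelled Upf2-/- libraries, against 86.0 to 95.2 over the controls. Of these, Bst2, which is itself one of the reference interferon-stimulated genes, had footprint changes of 4.27, 2.75 and 2.45 in that order of genotypes, Tcf4 had 0.33, 0.21 and -0.07, and the defining marker Siglech was at 0 in all MEF footprint libraries. The sum of 5 endothelial markers was lower, with 25.2 to 32.6 CPM of footprints in Pelo-/- libraries, 38.5 to 43.6 in Hbs1l-/- libraries and 53.1 to 60.7 in labelled Upf2-/- libraries, against 69.2 to 85.9 over the controls. In RNA they summed to 33.6 and 40.5, 15.8 to 18.5 and 20.5 to 27.7 CPM, against 28.7 to 36.8. Emcn, an endothelial sialomucin, fell by 4.49, 2.41 and 2.92 in footprints (the highest of these edgeR adjusted p values was 3.6e-06). Its RNA was 7.22 and 8.09 CPM in Pelo-/-, 0.88 to 2.75 in Hbs1l-/- and 5.6 to 11.4 in labelled Upf2-/- libraries, against 9.08 to 12.4 in controls. Kdr, a receptor of vascular growth factor, also fell in Pelo-/- footprints, by 1.46, but Cdh5, an endothelial cadherin, rose there by 2.69, and Tek, an angiopoietin receptor, rose by 1.23 in labelled Upf2-/- footprints (edgeR adjusted p = 4.7e-05, 0.00041 and 0.0047). Pecam1 footprints were low but above every control of the pool in Pelo-/- libraries, at 0.672 to 1.39 against 0.0882 to 0.408 CPM, and not in the other mutants. The part of these marker differences in the OAS values was not tested. In bulk cultures, more cells of a type and more RNA per cell cannot be told apart.

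The mean over the 7 genes of log2(CPM + 0.5) was also compared across libraries with every other gene that passed the filter on low counts. Over the 18 MEF footprint libraries, which share genotypes and may share control cells, the genes most like it by Pearson's r included Slfn5 and Irgm2 (0.996 each), Ccl5 and Ifi44 (0.992 each), and the members' own values ran from 0.921 for Oas1g to 0.994 for Oasl2. Over the 11 RNA libraries they were Cxcl10 (0.996), Xaf1 (0.991), Ifit1 (0.990), Isg15 (0.986) and Irf7 (0.985), and the member least like the mean was Oas1b (0.867). These values are given as descriptions, since libraries of 1 genotype carry most of the variation.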

How the data were processed

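Footprints were counted in 30 libraries and RNA in 11. The deposited footprint counts were made by the authors with fastx_clipper, Bowtie2 2.2.3 (removal of ribosomal, small nucleolar and transfer RNA), HISAT2 2.1.0 on mm10 and featureCounts over coding sequence. The deposited RNA values, estimated counts and TPM per transcript, were made by the authors with kallisto 0.42.4. One further Pelo-/- RNA library, which the submitters set aside as an outlier, was not analysed here, so Pelo-/- RNA rests on 2 libraries. Per gene, estimated counts were added up over transcripts and taken to the nearest whole number.

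Counts were scaled with TMM factors, filtered with filterByExpr and fitted with edgeR 4.0.16 (R 4.3.3, quasi-likelihood test, 2-sided, Benjamini-Hochberg adjustment, threshold 0.05, prior count 0.125) in each mutant and its own controls. TE was the interaction of assay and genotype. DESeq2 1.42.0 and limma 3.58.1 on log2(TPM + 0.1), for genes with at least 0.5 TPM, were alternatives, as were other scaling, no filter, leaving out each library, a replicate block and controls summed over the 3 pools. The fits of Pelo-/- MEFs were tested on simulated data, with changes set only in genes that had more control counts than most members. These tests thus do not cover the members with few counts, nor the other mutants. Counting intervals are exact and at 95%.

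The members and gene lists were chosen with earlier results of these data known. All members were named, and from each list at most 4 genes with the largest change past the threshold, plus Abce1, Stat2, Irf7 and Irf9, the targeted genes and the 5 nearest patterns. Some genes that this rule names are not reported here. Marker genes of leukocytes, plasmacytoid dendritic cells, endothelium and fibroblasts were summed per library. Where nothing states that samples came from separate cultures, p-values measure only the spread between these samples. Promoters came from RefSeq (GRCm38.p6) and gene positions from Gencode on GRCm38.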

Additional observations from a re-analysis of the deposited data

Results flagged for a closer look

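Eif2ak2, the kinase PKR, changed in opposite directions in the 2 assays of Pelo-/- MEFs. Its footprints were 107, 116 and 141 CPM against 26.8, 28.7 and 33.8 CPM in controls, while its RNA was 4.67 and 5.39 CPM against 11.6, 12.5 and 13.0 CPM. The difference itself, tested as an assay-by-genotype interaction term, was 3.31 ± 0.19 on the log2 scale (edgeR adjusted p = 3.8e-07). Eif2ak2 was flagged because both assays, in opposite directions, and this term passed the threshold. The p-value was thus part of the choice and is no separate support. TE was called higher for 21.9% of all genes tested in Pelo-/- cells, and Ifih1 also rose in footprints and fell in RNA. Footprints and RNA came from separate dishes and batches, so this and a difference between cultures cannot be told apart.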

How the results depend on the processing

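The 36 log2 fold changes of the members had 352 alternative values, of which 327 stayed within 1 standard error, 25 moved further and 0 changed sign as called values. Without a filter on low counts 7 genes were called in Hbs1l-/- footprints, since 3 more were tested, and limma on TPM called 3 of the 4 genes it tested in labelled Upf2-/- RNA. Leaving out 1 library at a time gave 4 to 6 called genes in Hbs1l-/-, 7 to 7 in Pelo-/- and 6 to 6 in labelled Upf2-/- footprints, 7 to 7, 0 to 0 and 5 to 6 in RNA, 0 to 0, 5 to 7 and 2 to 4 in TE, and 0 to 0 in embryos and cerebella. Without Pelo-pool control 2 that pool held 0 control counts of Oas1g, so no fold is given. Same-numbered libraries did not deviate together in every pair (correlations from -0.23 to 0.26), so the main fits do not pair samples by number. With so few libraries per group, these correlations cannot exclude a pairing. With the replicate block 5 members were called in Pelo-/- TE and 4 in labelled Upf2-/- TE, and the other counts were as reported. Over all genes the block gave 564 calls in embryos (214 without it), 0 in cerebella (9), 2955 in Pelo-/- RNA (4727) and 23 in Hbs1l-/- TE (2). DESeq2 gave 417, 482 and 311 calls in embryos, cerebella and Hbs1l-/- TE, and no filter gave 703, 16 and 22. On TPM limma gave 1523, 1479 and 1387 calls in Hbs1l-/-, Pelo-/- and labelled Upf2-/- RNA (3542, 4727 and 3194 with edgeR). Leaving out 1 library gave 28 to 2309 calls in embryos, 0 to 560 in cerebella, 0 to 39 in Hbs1l-/- TE and at least 1375 in labelled Upf2-/- TE (2392), with minima of 1817, 1506 and 1800 in RNA. The causes of these differences were not tested. In MEFs depth limits Oas1b, Oas1g and Oas2 most, with at most 10 footprint counts in the controls of any pool.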
